A study of Mus musculus with 60 samples.

Results

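Scand1, Ccdc85b, Romo1, Pcsk1n and Erdr1 are 5 genes, of 47643 symbols measured in mouse hippocampus, whose levels swung widely from library to library. They were chosen by name, with their values in these libraries in view, for varying together and for a supposed shortness and richness in G and C bases. Their spread, their covariation and their differences between groups are therefore given as a description and support nothing by themselves. RNA was sequenced from 60 hippocampus libraries of female mice labelled as 2 months old. The CAC groups had received melanoma cells labelled as cachectic, meaning that they cause the wasting syndrome of cancer, the NCAC groups melanoma cells labelled as non-cachectic, and the Con groups a mock injection. Hippocampus was sampled 2, 4, 6 and 8 wk after injection. CAC is represented by 4, 5, 5 and 7 libraries in that order of time, NCAC by 5, 5, 4 and 5, and Con by 5 each. The sample labels name the strain C57BL6/J for all groups, whereas the design text names NCI Ath/nude mice. The labels speak of biological replicates without stating that the libraries come from separate animals, so the errors measure the spread between these libraries.

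The 5 genes belong to no common pathway. Pcsk1n encodes proSAAS, a neuroendocrine precursor that inhibits the prohormone convertase PC1/3 and is itself cut into neuropeptides, and neurons store it in secretory granules. Romo1 encodes a small protein of the inner mitochondrial membrane that is linked to reactive oxygen species and to protein import. Scand1 carries a SCAN domain, the dimerisation module of a family of zinc finger factors, without the zinc fingers. Ccdc85b encodes a coiled-coil protein that binds catenins and transcription factors. Erdr1 is named as an erythroid differentiation regulator and lies at the pseudoautosomal end of the X chromosome. As background on the assay, recovery of a transcript in RNA-seq is known to depend on its length and base composition through fragmentation, amplification and size selection, and libraries can differ in this.

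The description as short and GC-rich held in part. Counted length is the gene length by which the deposited TPM (a length-scaled transcript abundance) values had been scaled, recovered from the steps in the values, and its median over the 15608 tested genes was 3738 bases. It was 759 bases for Scand1, 609 for Ccdc85b, 747 for Romo1 and 1124 for Erdr1, but 2193 for Pcsk1n, which lies at percentile 23.8 of the tested genes. The G and C share of the longest annotated transcript was 68.4% for Scand1, 60.6% for Romo1, 57.3% for Pcsk1n and 54.8% for Ccdc85b, against a median of 49.7%. Within the coding sequence the share was 75.3%, 61.7%, 71.9% and 69.5% in the same order, at percentiles of 99.97, 92.8, 99.7 and 99.3 and against a median of 53.2%. Ccdc85b is not short as annotated: its exons span 4715 bases, and the counted 609 bases equal its coding sequence alone. Of 13989 tested genes with exons longer than their coding sequence, 31 were counted over the coding length only (0.222%). Erdr1 has no entry of that symbol in the annotation used here (GENCODE M21), so its base composition was not analysed here.

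On GRCm38, the assembly also called mm10, Scand1 lies on the minus strand at chr2:156311847-156312704 and Romo1 on the plus strand at chr2:156144039-156145797, 166049 bases apart. Ccdc85b lies on the minus strand at chr19:5453180-5457894 and Pcsk1n on the plus strand at chrX:7919822-7924410. RefSeq, on GRCm38.p6, places Erdr1 at chrX:170010526-170018797 as a transcribed pseudogene and gives Gm21887 as its synonym. Gm21887 is a separate gene in the measured table, with a median of 0.125 TPM and a highest value of 3.55, so reads can be shared between copies and the level of Erdr1 is uncertain. Each of the other 4 genes overlaps an annotated gene on the opposite strand, and whether counting used the strand is not given in the sources used here. The overlap is 148 bases for Romo1 with Nfs1, 406 for Scand1 with Cnbd2, 2767 for Ccdc85b with Fosl1 and 135 for Pcsk1n with Eras. Fosl1 stayed at or below 0.299 TPM and Eras at or below 0.0955 TPM, while Nfs1 ranged from 30.8 to 39.6 TPM and Cnbd2 from 2.94 to 6.61 TPM. The correlation of Nfs1 with Romo1 was −0.26 and that of Cnbd2 with Scand1 −0.26 over the 60 libraries.

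The first 240 coding bases show how dense G and C are at the start of these coding sequences. They are given 5′ to 3′ from the GENCODE M21 transcripts on GRCm38, with every unbroken run of at least 5 G or C bases in capitals. For Romo1 they are the whole coding sequence. Trpc1, a cation channel gene on chromosome 9, is added because its level ran most strongly against that of the 5 genes; it was chosen after its values were seen.
Scand1: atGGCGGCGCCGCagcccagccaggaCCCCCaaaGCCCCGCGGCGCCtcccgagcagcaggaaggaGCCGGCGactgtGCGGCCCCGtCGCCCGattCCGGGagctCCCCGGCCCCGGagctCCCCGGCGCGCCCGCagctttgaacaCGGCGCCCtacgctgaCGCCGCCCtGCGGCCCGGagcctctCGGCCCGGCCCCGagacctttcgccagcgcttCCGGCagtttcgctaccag
Ccdc85b: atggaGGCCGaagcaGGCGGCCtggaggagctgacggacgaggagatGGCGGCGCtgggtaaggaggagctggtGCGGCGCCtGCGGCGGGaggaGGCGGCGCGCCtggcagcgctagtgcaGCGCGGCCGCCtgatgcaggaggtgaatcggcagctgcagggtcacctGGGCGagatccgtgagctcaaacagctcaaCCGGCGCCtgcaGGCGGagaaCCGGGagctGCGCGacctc
Romo1: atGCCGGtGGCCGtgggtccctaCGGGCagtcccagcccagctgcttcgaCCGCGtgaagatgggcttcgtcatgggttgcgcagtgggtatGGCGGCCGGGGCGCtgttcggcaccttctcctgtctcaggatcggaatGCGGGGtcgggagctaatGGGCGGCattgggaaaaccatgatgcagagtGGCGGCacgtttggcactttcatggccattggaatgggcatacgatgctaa
Pcsk1n: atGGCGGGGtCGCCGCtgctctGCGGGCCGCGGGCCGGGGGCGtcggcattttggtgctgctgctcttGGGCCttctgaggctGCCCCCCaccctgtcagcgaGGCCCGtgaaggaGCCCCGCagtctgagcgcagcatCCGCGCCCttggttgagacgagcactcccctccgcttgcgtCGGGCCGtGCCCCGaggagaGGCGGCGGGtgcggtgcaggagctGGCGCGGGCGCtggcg
Trpc1: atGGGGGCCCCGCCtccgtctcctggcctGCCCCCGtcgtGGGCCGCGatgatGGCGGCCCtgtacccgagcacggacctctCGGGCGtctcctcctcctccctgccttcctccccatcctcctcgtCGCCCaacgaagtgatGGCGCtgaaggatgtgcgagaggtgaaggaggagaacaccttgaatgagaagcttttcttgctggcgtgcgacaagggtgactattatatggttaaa
In these windows 126 of the bases of Scand1 lay in such runs, 100 of those of Pcsk1n, 86 of those of Ccdc85b and 53 of those of Romo1, against a median of 23 over the 13792 tested genes with a window of this length. The number of CpG pairs was 34, 28, 26 and 19 in that order, against a median of 9. The longest run was 21 bases, in Pcsk1n. The window of Trpc1 holds 51 bases in runs and 61.7% G and C, the same share as Romo1. Among the windows of tested genes the GC share of Scand1 stood at percentile 98.2, that of Pcsk1n at 96.9, that of Ccdc85b at 93.5 and that of Romo1 at 75.4. The median share over these windows was 55.4%. The whole coding sequence of Trpc1 holds 45.4%.

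All 5 genes were among the most variable genes of the table. Pcsk1n ranged from 2.16 to 110 TPM (50.9-fold) with a median of 26.7, and Romo1 from 2.23 to 61.7 TPM (27.6-fold) with a median of 25.3. Ccdc85b ranged from 0.342 to 44.8 TPM (131-fold) around a median of 8.11, and Erdr1 from 0.278 to 37.3 TPM (134-fold) around a median of 6.51. Scand1, the lowest of the 5, reached 7.33 TPM around a median of 1.10. It had 0 reads in replicate 1 of Con at 2 wk and in replicate 3 of CAC at 6 wk, where 3 reads would have been 0.383 and 0.413 TPM, the upper limit that a count of 0 allows for counting error alone.

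The SD of log2(TPM + 0.5) over the 60 libraries was 1.38 for Ccdc85b, 1.34 for Erdr1, 1.24 for Pcsk1n, 1.15 for Scand1 and 0.98 for Romo1. The median over tested genes was 0.17. From the highest SD downwards these were ranks 57, 65, 77, 98 and 156 of 15608. Within groups the SD was 0.96, 0.99, 0.92, 0.93 and 0.71 in the same order, against a median of 0.15. Differences between the 12 groups made up 46.7% of the variance of Scand1 and 60.9% of that of Ccdc85b, with the other 3 genes between. These shares are not corrected for the number of groups, so they lie above 0 even where groups do not truly differ. Counting error alone would give an SD of 0.30 for Scand1, which had 0 to 71 reads per library, and 0.07 for Pcsk1n, which had 44 to 2950.

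**Figure D1:**
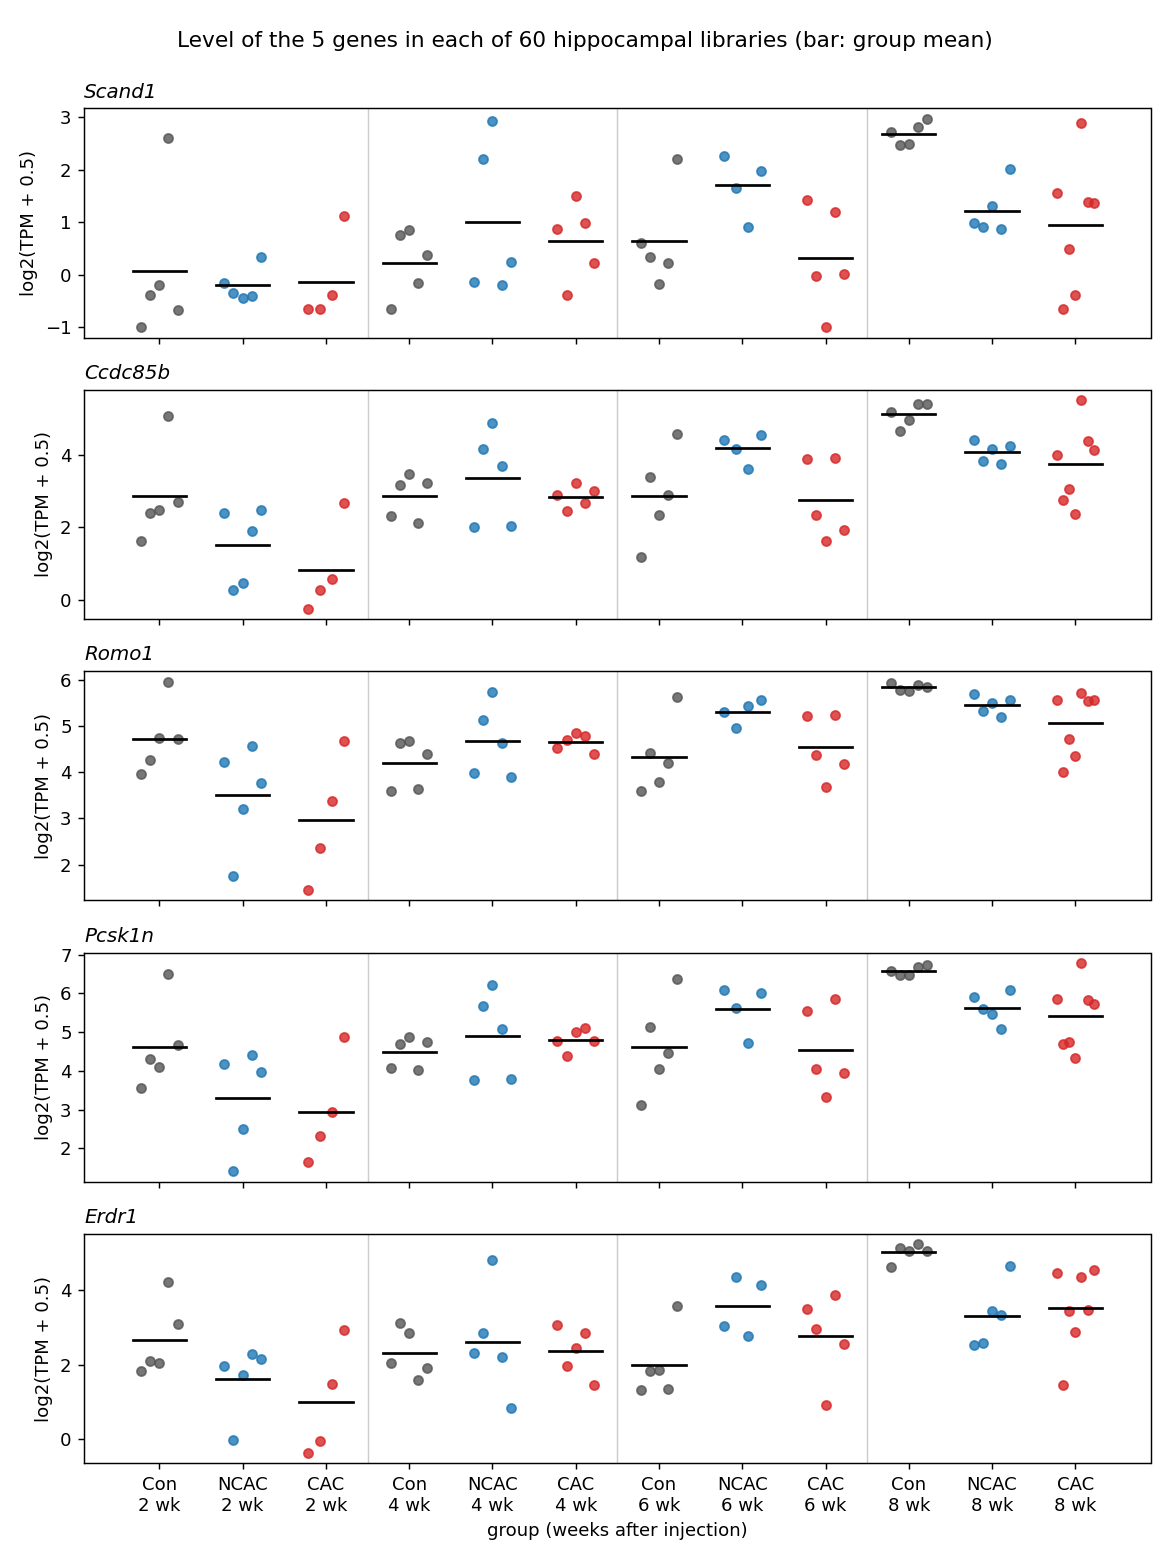
Level of each of the 5 genes as log2(TPM + 0.5) in every library, by group and week, with points for libraries and a bar for the group mean. The 5 Con libraries at 8 wk sit high and close together, Pcsk1n between 88.9 and 105 TPM, while libraries of 1 group elsewhere can differ by several log2 units.

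**Figure D2:**
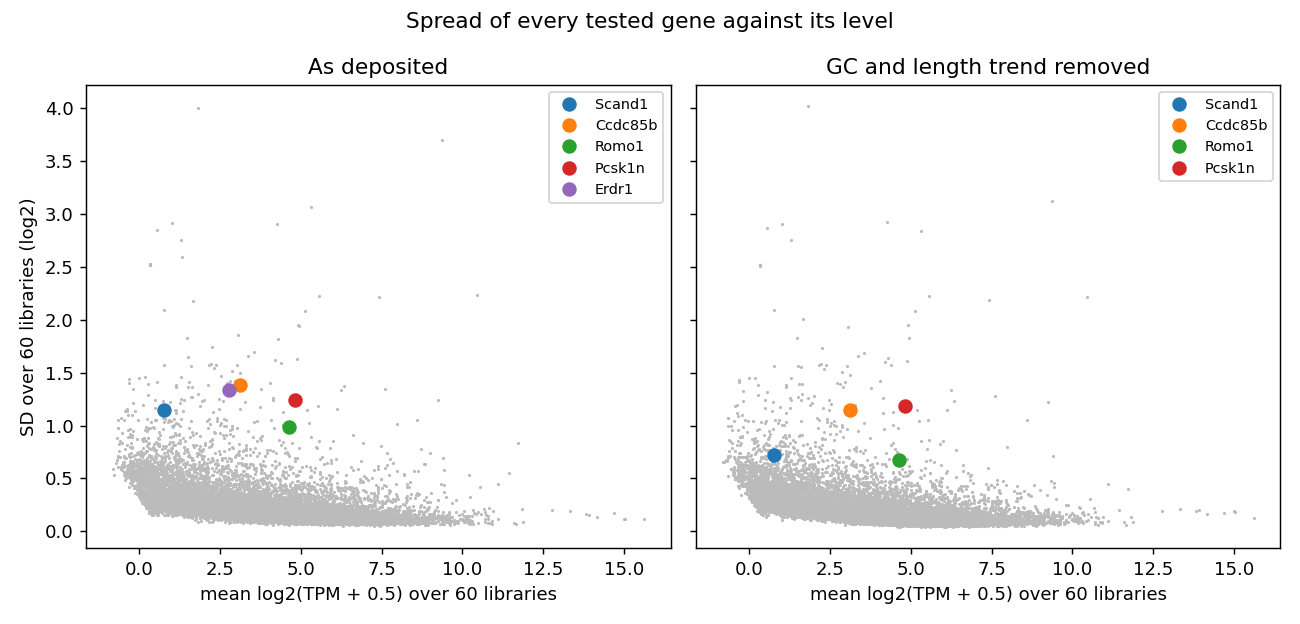
SD over 60 libraries against mean level for every tested gene (grey) and for the 5 genes (coloured), as deposited (left) and after the trend on GC content and length was removed from each library (right, where Erdr1 has no value). As deposited the 5 genes have SDs of 0.98 to 1.38, and the 4 shown on the right 0.68 to 1.19.

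Pcsk1n, with the most reads, shows the course. In Con at 2 wk replicates 1 to 5 held 11.2, 19.3, 16.6, 90.8 and 25.1 TPM. In NCAC at 2 wk replicates 1 to 5 held 17.8, 2.16, 5.12, 20.9 and 15.2 TPM, and in CAC at 2 wk replicates 1, 2, 4 and 5 held 2.66, 4.46, 7.15 and 28.6 TPM. Replicate 4 of Con stood far above the rest, and 3 of the 4 CAC libraries lay below every Con library. At 8 wk the Con replicates 1 to 5 held 95.1, 88.9, 89.0, 101 and 105 TPM. The NCAC replicates held 59.3, 48.1, 44.2, 33.2 and 67.3 TPM, all below Con. The 7 CAC libraries ran from 19.6 to 110 TPM around a median of 52.7, with 6 below every Con library and replicate 5 above them all.

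Romo1 moved with it. In Con at 2 wk replicates 1 to 5 held 15.03, 18.6, 26.3, 61.7 and 25.7 TPM, and in CAC at 2 wk replicates 1, 2, 4 and 5 held 2.23, 4.65, 9.89 and 24.9 TPM. Again 3 of the 4 CAC libraries lay below all Con libraries, and replicate 4 of Con was the highest library of the study. At 8 wk Con held 60.5, 54.1, 53.4, 58.3 and 57.0 TPM in replicates 1 to 5. CAC ran from 15.5 to 51.9 TPM around a median of 46.0, and NCAC from 36.3 to 51.3 TPM, so neither overlapped Con.

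Between these times the groups overlapped widely. At 4 wk Pcsk1n ran from 15.9 to 29.1 TPM in Con, from 20.6 to 33.9 in CAC and from 13.1 to 74.4 in NCAC. At 6 wk it ran from 8.21 to 82.5 TPM in Con, from 9.58 to 57.7 in CAC and from 26.0 to 67.1 in NCAC. A single library, replicate 5 of Con at 6 wk, set the top of that Con range for Pcsk1n, and it was also the highest Con library of that time for the other 4 genes.

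The Con group at 8 wk stood apart from the other mock-injected groups. For Ccdc85b its replicates 1 to 5 held 35.9, 24.8, 30.5, 41.7 and 41.8 TPM, for Scand1 6.03, 5.01, 5.12, 6.52 and 7.33 TPM, and for Erdr1 24.4, 35.1, 33.0, 37.3 and 32.7 TPM. Of the 55 other libraries, 3 reached the lowest of these values for Scand1, 3 for Ccdc85b, 1 for Romo1, 2 for Pcsk1n and 2 for Erdr1. In Con at 2 wk Ccdc85b held 2.54, 4.73, 5.08, 33.0 and 5.96 TPM, and Erdr1 3.10, 3.80, 3.67, 18.3 and 8.03 TPM, so replicate 4 was the highest library of that group for every one of the 5 genes.

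To follow the 5 genes together, each gene's deviation from its mean over the 60 libraries was averaged over them. This mean deviation ran from −2.85 log2 in replicate 1 of CAC at 2 wk to 1.98 in replicate 5 of Con at 8 wk. The next lowest libraries were replicate 2 of NCAC (−2.61), replicate 2 of CAC (−2.38), replicate 3 of NCAC (−1.74) and replicate 4 of CAC (−1.63), all at 2 wk. All 5 Con libraries at 8 wk lay between 1.68 and 1.98, a level that 2 of the 55 other libraries reached, replicate 5 of CAC at 8 wk (1.83) and replicate 3 of NCAC at 4 wk (1.69). Replicate 4 of Con at 2 wk followed at 1.65, while the median of its group was −0.59.

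The 10 pairs among the 5 genes had Pearson correlations from 0.79 (Scand1 with Romo1) to 0.98 (Ccdc85b with Pcsk1n) over the 60 libraries, with a median of 0.87. With the group means taken off the median was 0.81, so the genes also varied together among libraries of the same group. Romo1 correlated with Pcsk1n at 0.96 and with Ccdc85b at 0.94, and Erdr1 with the other 4 at 0.83 to 0.88. The points share library preparation and sequencing, and the genes were chosen for this pattern.

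The libraries themselves differed in how their other genes related to base composition and length. For each library, the deviations of 15058 other tested genes were regressed on transcript GC content and log2 counted length together. The GC slope ran from −0.23 to 0.16 log2 per 10 percentage points, and the length slope from −0.10 to 0.15 log2 per doubling of length. The mean deviation of the 5 genes correlated with the GC slope at r = 0.87 (Spearman 0.87, n = 60) and with the length slope at r = −0.85 (Spearman −0.82). Within groups these were 0.80 and −0.75. The slopes of GC and length correlated with each other at −0.70, so neither correlation stands apart from the other. Their separate shares were not tested. The correlation with log2 read depth was 0.42, and with the number of genes at 1 TPM or more 0.48.

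Pcsk1n followed the GC slope most closely (r = 0.89), then Ccdc85b (0.87), Romo1 (0.85), Erdr1 (0.77) and Scand1 (0.76). Romo1 and Erdr1 followed the length slope at −0.86 and −0.85, Pcsk1n and Ccdc85b at −0.80 each and Scand1 at −0.74. The Con group at 8 wk had GC slopes of 0.09 to 0.12 and length slopes of −0.10 to −0.09, the narrowest range of length slopes of any group. CAC at 2 wk had GC slopes of −0.16 to 0.02 and length slopes of 0.03 to 0.15. The groups in which the 5 genes were high and low therefore also differed in these slopes.

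**Figure D3:**
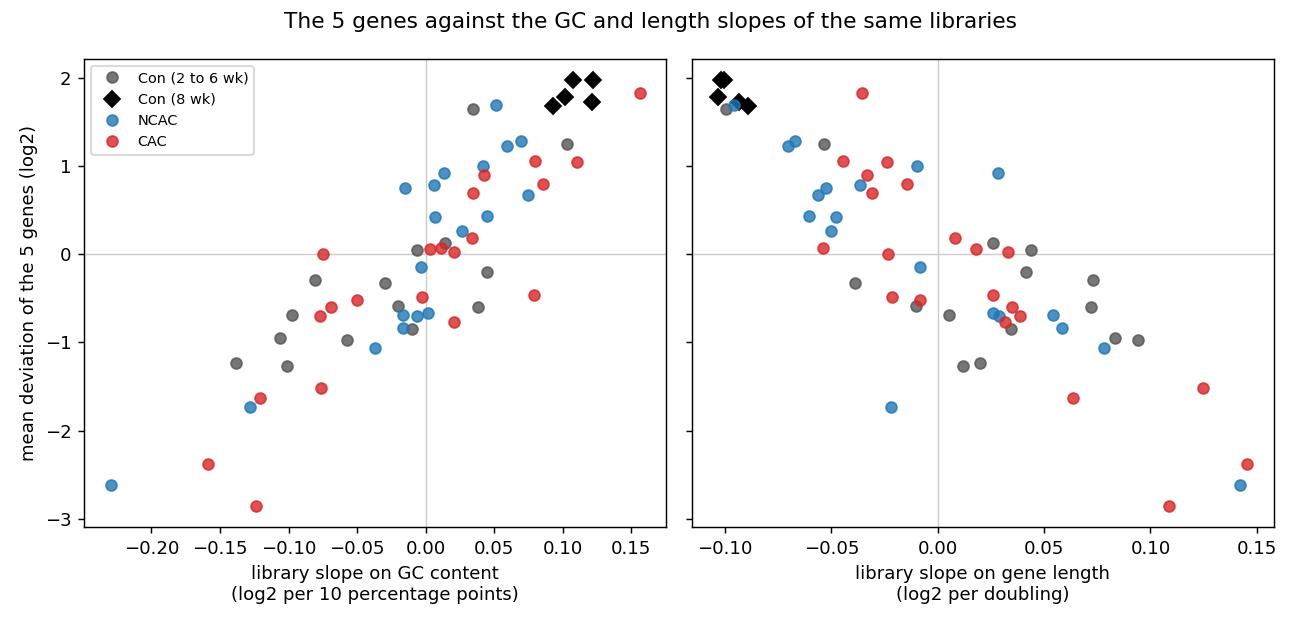
Mean deviation of the 5 genes (log2) in each library against that library's slope on GC content (left) and on gene length (right), coloured by treatment with Con at 8 wk as black diamonds. The points rise with the GC slope (r = 0.87) and fall with the length slope (r = −0.85), and the diamonds lie between 1.68 and 1.98.

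Removing from each library a smooth trend on transcript GC content and length left much of the swing. The SD became 1.19 for Pcsk1n, 1.15 for Ccdc85b, 0.72 for Scand1 and 0.68 for Romo1, against a median of 0.15, and all 4 stayed at or above percentile 97.7 of 15062 genes. With GC content of the coding sequence in its place the SDs were 1.07, 0.98, 0.83 and 0.68. The median correlation over the 6 pairs of these 4 genes was 0.90 as deposited, 0.74 after the first removal and 0.81 after the second. Pcsk1n with Ccdc85b stayed at 0.96 and 0.94, whereas Scand1 with Romo1 went to 0.42 and 0.61. Erdr1 could not be included for want of an annotated sequence.

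The same swing ran through other genes of like composition. Of 15603 other tested genes, 756 (4.85%) correlated with the mean deviation of the 5 genes above 0.7, and the median correlation was −0.15. Of the 207 genes in both the shortest decile (1363 bases or less) and the most GC-rich decile (57.9% or more), 82 (39.6%) did, with a median of 0.62, and 1 had a negative correlation. The median was 0.42 over the 1298 GC-rich genes of other lengths and 0.32 over the 1242 short genes of other composition. At the opposite corner, 230 of the 233 genes in both the longest decile (8541 bases or more) and the most GC-poor decile (41.4% or less) had negative correlations, with a median of −0.62. Across genes, which are not independent replicates, the correlation with the 5 genes had a Spearman rank correlation of 0.57 with transcript GC content, 0.57 with coding GC content, 0.35 with GC content of the first 240 coding bases and −0.55 with counted length.

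**Figure D4:**
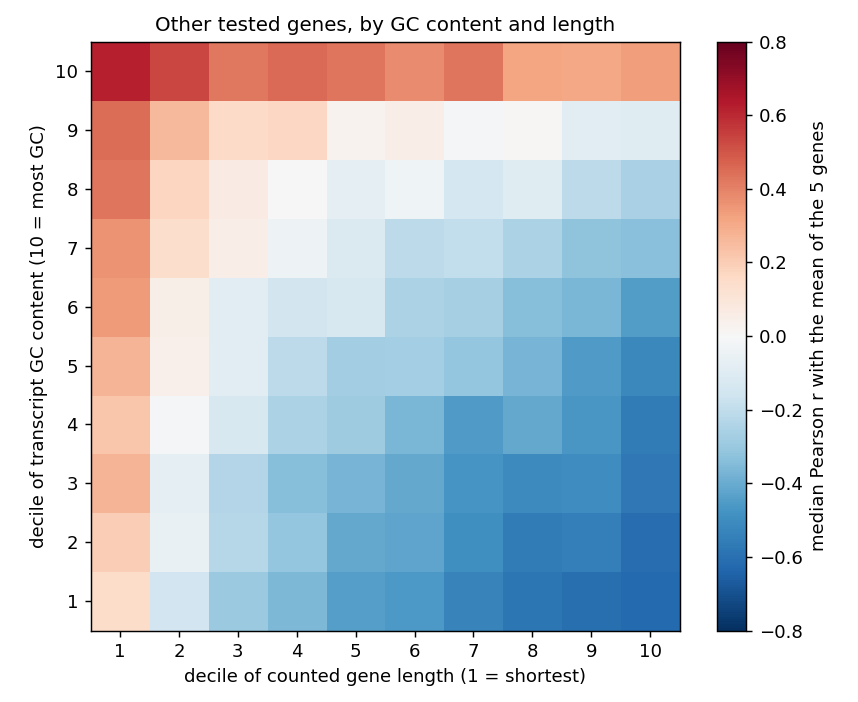
Median Pearson correlation of other tested genes with the mean of the 5 genes, by decile of counted length (across) and of transcript GC content (up). It runs from 0.62 for the shortest and most GC-rich genes at the top left to −0.62 for the longest and most GC-poor genes at the bottom right.

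The genes most like each of the 5 were found by Pearson correlation over the 60 libraries. For Pcsk1n they were Tpgs1 (0.98), a tubulin polyglutamylase subunit, C1qtnf4 (0.98), Ccdc85b (0.98), Jund (0.98), an AP-1 transcription factor, and Prr7 (0.97). For Ccdc85b they were Pcsk1n (0.98), Tpgs1 (0.97), C1qtnf4 (0.96), Prr7 (0.96) and Grcc10 (0.95). For Romo1 they were Mrpl52 (0.97), a mitochondrial ribosomal protein, Grcc10 (0.97), Mif (0.97), a cytokine, Uqcrq (0.97), a subunit of respiratory complex III, and Rpl36 (0.97), a ribosomal protein. For Scand1 they were Ccdc85b (0.86), Zfp771 (0.86), Ier5l (0.85), H1fx (0.85), a linker histone, and Yjefn3 (0.85). For Erdr1 they were H1fx (0.91), Gng13 (0.90), a G protein gamma subunit, Zfp771 (0.89), Rpl29 (0.89) and Snrpf (0.89), a splicing protein. Snrpf has a transcript GC content of 41.3% at 861 bases, so not every gene of this kind is GC-rich.

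The genes nearest to the mean of all 5 were H1fx (0.97), Jund (0.97), C1qtnf4 (0.96), Tpgs1 (0.96) and Prr7 (0.96), with coding GC contents from 67.2% to 70.6%. Those farthest against it were Trpc1 (−0.85), Apc (−0.84), Tmed7 (−0.84), Zmym2 (−0.84) and Dnm1l (−0.84), with counted lengths from 4107 to 15753 bases. The ranges differ in size as well as direction. C1qtnf4 ran from 0.485 to 44.7 TPM, whereas Trpc1 ran only from 34.6 to 55.3 TPM.

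In CAC minus Con the values of all 5 genes lay below 0 at 2 wk and 8 wk as deposited, and that of Scand1 at 2 wk was above 0 once the trend with GC content and length was removed. Differences are in log2(TPM + 0.5), which understates the change of low genes, with the SE from the limma fit over all genes. A gene was called where its Benjamini-Hochberg adjusted p over the 15608 tested genes was below 0.05. Since the 5 genes were chosen with these values in view, nothing is read from their number of calls or of groups without overlap. The share of all tested genes without overlap was not computed. All 5 passed the filter on low values. In bulk tissue fewer cells of a type and less RNA per cell cannot be told apart.

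At 2 wk CAC minus Con was −2.04 ± 0.62 for Ccdc85b, −1.76 ± 0.46 for Romo1, −1.69 ± 0.59 for Pcsk1n, −1.66 ± 0.64 for Erdr1 and −0.21 ± 0.60 for Scand1. With the GC and length trend removed the value of Scand1 was 0.71, and with coding GC content 0.47. Scand1 lay near the floor here, at 1 to 12 reads per library in CAC and 0 to 48 in Con, so its direction is uncertain. Of the 5 genes, 2 were called, Ccdc85b and Romo1, beside 3.7% of all tested genes. The limma adjusted p was 0.0496 for Ccdc85b and 0.0312 for Romo1, and leaving out any of several libraries removed calls. Without replicate 1 or 2 of CAC, or replicate 4 or 5 of Con, neither was called. Ccdc85b was also not called without replicate 4 of CAC or replicate 3 of Con. The number of genes called went from 577 to 4 and 33 without the first pair and to 2 and 33 without the second, and to 1279 without replicate 5 of CAC, where Pcsk1n and Erdr1 were called too.

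At 8 wk CAC minus Con was −1.74 ± 0.53 for Scand1, −1.51 ± 0.56 for Erdr1, −1.39 ± 0.54 for Ccdc85b, −1.16 ± 0.52 for Pcsk1n and −0.77 ± 0.40 for Romo1. Scand1 alone was called, beside 14.5% of all tested genes. Romo1 and Erdr1 were the 2 of the 5 genes whose groups did not overlap, which was not counted over all tested genes. Scand1 was not called without replicate 2 or replicate 4 of CAC, in which it had 1 and 2 reads. Its CAC libraries held 1 to 56 reads and its Con libraries 41 to 71. Without replicate 5 of CAC Ccdc85b and Erdr1 were called as well. Erdr1 was also called without replicate 1 or replicate 7. From 2256 genes called, the number became 1034 without replicate 2 of CAC, 1382 without its replicate 6, 1287 without replicate 1 of Con and 1090 without replicate 3 of Con. With voom on the recovered reads 4 of the 5 genes were called, beside 1597 of the 15608 tested genes. At 4 wk the differences ran from −0.02 to 0.46 and at 6 wk from −0.31 to 0.77, with 0 of the 5 genes called at either time, beside 0.801% and 0.25% of tested genes. With voom 0 of the 5 were called at these times too, beside 154 and 47 of all tested genes.

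In NCAC minus Con the 5 genes lay at −1.35 to −0.27 at 2 wk, 0.30 to 0.77 at 4 wk, 0.98 to 1.59 at 6 wk and −1.72 to −0.38 at 8 wk. At 8 wk the groups did not overlap for 4 of them, all but Erdr1, and the share of all tested genes without overlap was not computed. Scand1 had the −0.27 of 2 wk, and its value was 0.38 with the GC and length trend removed and 0.22 with coding GC content. It had 2 to 6 reads per library in NCAC and 0 to 48 in Con at that time, so its direction is uncertain. None of the 5 was called in any of these comparisons, and 0% of all tested genes was called in each. At an unadjusted p below 0.05 there were 1517, 1538, 587 and 1226 genes in time order, and voom called 0 genes in each. When only the Con and NCAC libraries of 8 wk were fitted, 1 of the 5 was called, among 5 genes in all.

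CAC minus NCAC ran from −0.69 to 0.06 at 2 wk, −0.51 to −0.03 at 4 wk, −1.44 to −0.77 at 6 wk and −0.39 to 0.21 at 8 wk. None of the 5 genes was called, beside 0%, 0.0128%, 1.77% and 1.83% of tested genes. At 2 wk 1083 genes had an unadjusted p below 0.05, and voom called 0. The comparisons of a week share libraries, so they are not independent of each other.

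The mock-injected groups of different times also differed. Con at 8 wk minus Con at 2 wk was 2.62 ± 0.57 for Scand1, 2.36 ± 0.61 for Erdr1, 2.27 ± 0.58 for Ccdc85b, 1.96 ± 0.56 for Pcsk1n and 1.11 ± 0.43 for Romo1. All but Romo1 were called, 4 of 5, beside 9.67% of all tested genes, and for Erdr1 the groups did not overlap. Scand1 lay near the floor in replicates 1, 2, 3 and 5 of Con at 2 wk, at 0 to 3 reads. It had 48 reads in replicate 4 and 41 to 71 per library at 8 wk. With each library's GC and length trend taken off, 15 of 15062 genes were called in place of 1509 of 15608. None of the 4 genes that could be included was called, at differences of 1.69 for Scand1, 1.89 for Ccdc85b, 0.63 for Romo1 and 1.87 for Pcsk1n. With coding GC content in the trend 18 of 13902 genes were called, Scand1 among them. Without replicate 1 of Con at 2 wk 173 genes were called and Ccdc85b, Pcsk1n and Erdr1 were not. Without its replicate 4 there were 2546, with all 5 genes. Pcsk1n was also not called without replicate 2 or replicate 3 of Con at 2 wk or replicate 5 of Con at 8 wk, which left 463, 882 and 677 genes called. Without replicates 3 and 4 of Con at 8 wk in turn there were 816 and 748, and without its replicate 1 there were 973, with 4 of the 5 genes called each time.

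**Figure D5:**
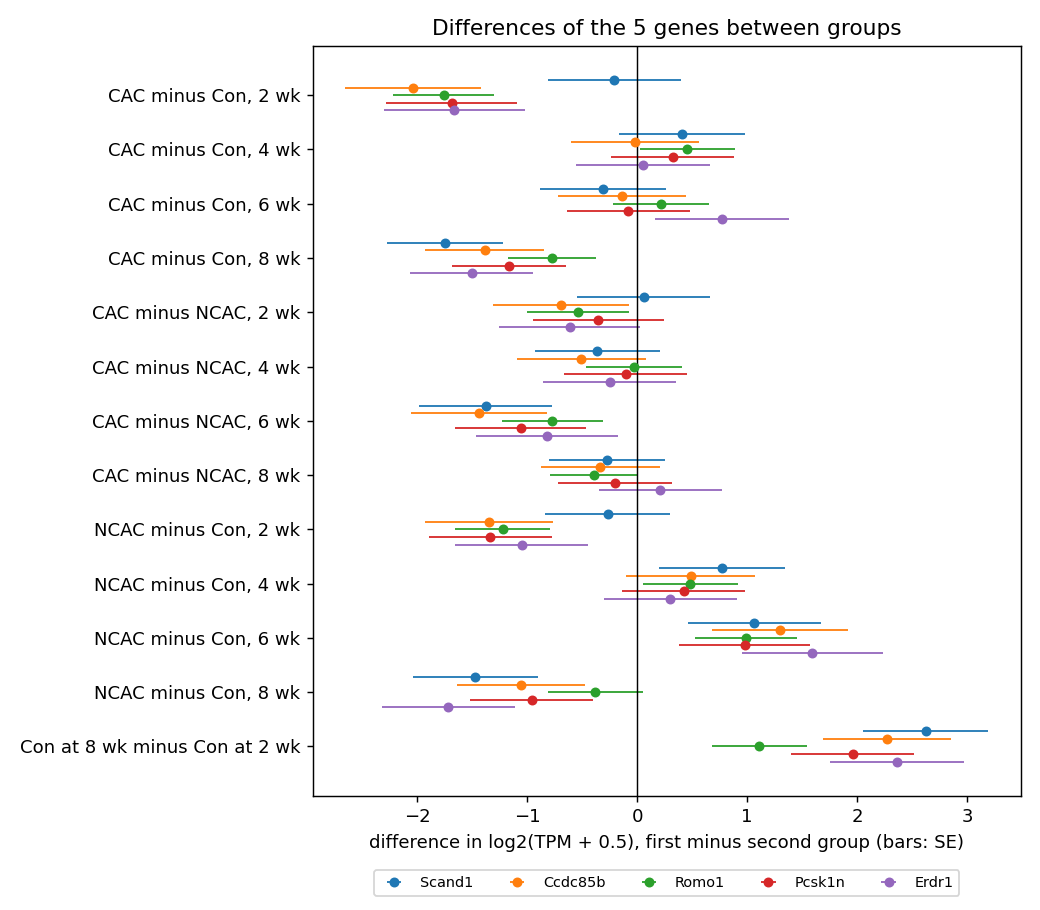
Differences in log2(TPM + 0.5) of the 5 genes in each of the 13 comparisons, first group minus second, with points for the fitted difference and bars for its SE. As deposited, CAC minus Con lies below 0 for all 5 genes at 2 wk and 8 wk, where Scand1 at 2 wk is at −0.21 and becomes 0.71 with the GC and length trend removed, and Con at 8 wk minus Con at 2 wk lies between 1.11 and 2.62. Scand1 had 1 to 12 reads per library in CAC and 0 to 48 in Con at 2 wk.

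Relatives of the 5 genes ran both with and against them. In the list of prohormone processing and secretory granule genes, to which the target of proSAAS belongs, all 16 were tested and 4 correlated positively with the mean of the 5 genes. Pcsk1, which encodes that target, had a correlation of −0.35, Pcsk2, the second neuroendocrine convertase, −0.65, and the carboxypeptidase gene Cpe −0.53. The granule gene Vgf stood out at 0.88, with 7.81 to 70.5 TPM and a coding GC content of 65.5%, and Chga followed at 0.61 and 59.3%. At a like coding GC content Ptprn (59.7%) had only 0.28 and Syt7 (59.9%) had −0.13. At 2 wk 1 of the 16 was called higher in CAC than in Con and 0 lower, beside 3.7% of all tested genes, with a median difference of 0.08 against 0.06 over all genes. The called gene was Pcsk2 (0.23 ± 0.07, limma adjusted p = 0.042), and Vgf differed by −0.84 ± 0.28 (adjusted p = 0.0716). At 8 wk it was again 1 higher, Pcsk2 (0.27 ± 0.06, limma adjusted p = 0.00301), beside 14.5% of tested genes, with a median of 0.08 against 0.05.

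Of the 20 genes of mitochondrial inner membrane import and cristae, the process to which Romo1 is linked, 13 correlated positively. The mean of the list correlated with that of the 5 genes at 0.83, and at 0.76 within groups. The small import chaperone Timm13 had 0.88, the import motor genes Pam16 and Dnajc19 0.88 and 0.82, and Timm8b 0.71, whereas Opa1 and Immt, which shape the cristae and have counted lengths of 7875 and 5398 bases, had −0.80 and −0.79. Dnajc19 is neither short nor GC-rich, with 4027 counted bases and a coding GC content of 47.3%, against medians of 3738 and 53.2%. In CAC against Con at 2 wk 1 of the 20 was called higher and 4 lower, beside 3.7% of all tested genes, with a median of −0.07 against 0.06 over all genes. Timm8b was lower by −0.63 ± 0.14 (limma adjusted p = 0.0188) and Timm21 by −0.30 ± 0.08 (adjusted p = 0.0398). At 4 wk 1 of the 20 was called higher and 0 lower, beside 0.801% of tested genes, and it was Timm8b at 0.50 ± 0.13 (limma adjusted p = 0.0482), opposite in sign to 2 wk. At 8 wk, beside 14.5% of tested genes, 1 was higher, Timm44 (0.29 ± 0.09, limma adjusted p = 0.0204), and 1 lower, Timm21 (−0.23 ± 0.07, adjusted p = 0.0268), with a median of −0.06 against 0.05.

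The paralogs of Ccdc85b split. Ccdc85c, with a transcript GC content of 61.4% at 1547 bases, correlated with the 5 genes at 0.80, and Ccdc85a, with 43.8% at 6971 bases, at −0.37. Neither was called in any of the 13 comparisons. Of 28 SCAN domain genes 26 were tested and 5 correlated positively, among them Zfp444 (0.68), which has a coding GC content of 67.9%. Mzf1, with 62.5%, had −0.01, and Zkscan17, with 59.6%, had −0.23. In CAC against Con at 8 wk 9 of the 26 were called higher and 0 lower, with a median of 0.13 against 0.05. Over all genes 14.5% were called there, 1757 higher and 499 lower, and under median-of-ratios scaling 679 higher and 730 lower. Zscan21 differed by 0.30 ± 0.07 (limma adjusted p = 0.00712) and Zscan18 by 0.27 ± 0.07 (adjusted p = 0.00858). In Con at 8 wk against 2 wk 6 of the 26 were called lower and 0 higher, with a median of −0.15 against −0.06. Over all genes 9.67% were called there, 1248 lower and 261 higher, against 483 lower and 501 higher under median-of-ratios scaling. With the GC and length trend removed 15 of 15062 genes were called in all. Of 5 genes of the pseudoautosomal region and its border only Mid1 was tested, and it correlated at 0.20.

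Depth ran from 32388193 to 42046788 recovered reads per library, with a median of 36664660. Hippocampal neuron markers were present, with a summed level of 645 to 1123 TPM over 8 genes, and all markers of the lists of striatum, thalamus, blood, choroid plexus, microglia, oligodendrocytes and astrocytes were tested, with none at 0 in every library. The summed striatum markers ranged from 84.2 to 1953 TPM and the summed choroid plexus markers from 39.2 to 10798 TPM. Correlations of the list means with the mean of the 5 genes were −0.24 for hippocampal neurons, −0.21 for striatum, −0.53 for thalamus, 0.36 for blood, 0.07 for choroid plexus, −0.13 for microglia, −0.29 for oligodendrocytes and −0.48 for astrocytes. In Con at 8 wk the summed thalamus markers ran from 106 to 133 TPM and the astrocyte markers from 1607 to 1662 TPM. In CAC at 2 wk they ran from 139 to 335 and from 1922 to 2129 TPM. The oligodendrocyte markers ran from 991 to 1642 TPM in Con at 8 wk and from 1834 to 2515 TPM in CAC at 2 wk. The summed ranges of the other marker lists overlapped between these groups. The part of the marked cells and tissues in the differences of the 5 genes was not tested.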

How the data were processed

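Per the labels' protocols, Trizol-extracted RNA went through the TruSeq stranded mRNA kit and Illumina sequencing. Deposited by the authors was 1 table of TPM per gene symbol and library, on build mm10 per the submitters' processing notes. The aligner, the counter and the annotation release were not given in the sources used here. Each TPM value divides by gene length and library total and keeps any difference between libraries in recovery by length or base composition. Values were whole multiples of a step, and whole reads were recovered for 24227 of 24227 genes above 0 (100.0%) within 0.02 reads. The counted length taken was the smallest that gave whole reads in every library. It equalled the total length of the annotated exons, overlaps taken once, for 9270 of 15035 tested genes with 1 annotated gene (61.7%). Group means of 12 groups were fitted to log2(TPM + 0.5) of 60 libraries by limma 3.58.1 (R 4.3.3), with the variance trended on level. Genes with at least 1 TPM in at least 4 libraries were tested (15608), with Benjamini-Hochberg adjustment and a threshold of 0.05. The GC and length trend was removed by regressing each library on natural splines (5 degrees of freedom for either feature). GC content came from GENCODE M21, for 96.5% of tested genes. The fit and the slopes were tested on simulated data with planted differences and slopes. The simulated noise was independent between genes, without the swings that genes of these libraries share, so it says nothing about the numbers of calls here. The 5 genes, the gene lists, the rules and the tests were chosen with earlier results of these data known. The named genes are the 5, for each the 5 with the highest correlation (predicted and clone names left out), and from each list the 2 with the smallest p where it is described; other named genes were chosen after their values were seen. Alternatives were other pseudocounts, scalings and filters, voom, fits on the compared groups, a replicate block and leaving out single libraries.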

Additional observations from a re-analysis of the deposited data

Results flagged for a closer look

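In 4 of 60 sets (a gene in a group) the highest or lowest library lay far from the others of its group, and chance flags about 1 in 20 groups. Scand1 was 5.55 TPM in replicate 4 of Con at 2 wk, where the other 4 libraries ran from 0 to 0.371, and 1.65 TPM in replicate 5 of CAC at 2 wk, where the other 3 ran from 0.137 to 0.263. Erdr1 was 11.5 TPM in replicate 5 of Con at 6 wk, against 1.99 to 3.15 in the others, and 0.478 TPM in replicate 2 of NCAC at 2 wk, against 2.80 to 4.41.

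At 1 time every library of a tumour group lay above the Con mean of that time, and at another time every library of the same treatment lay below it. These changes were not tested. For CAC minus Con, Romo1 changed by 2.22 log2 from 2 to 4 wk and by −1.23 from 4 to 8 wk. For NCAC minus Con from 2 to 6 wk the change was 2.65 for Ccdc85b, 2.64 for Erdr1, 2.31 for Pcsk1n and 2.21 for Romo1. From 6 to 8 wk it was −3.31 for Erdr1, −2.54 for Scand1, −2.36 for Ccdc85b, −1.94 for Pcsk1n and −1.37 for Romo1.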

How the results depend on the processing

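The direction of every one of the 5 genes' called differences held under all settings tried that could include the gene. The number of calls did not hold, and the cause was not tested. Among uncalled differences, Scand1 at 2 wk turned from −0.21 to 0.71 and 0.47 in CAC minus Con and from −0.27 to 0.38 and 0.22 in NCAC minus Con with the trend removed by transcript and coding GC content. Scand1 had 1 to 12 reads per library in CAC, 2 to 6 in NCAC and 0 to 48 in Con at that time. Genes called in CAC minus Con at 2, 4, 6 and 8 wk numbered 577, 125, 39 and 2256, in CAC minus NCAC 0, 2, 276 and 285, and in Con at 8 wk minus 2 wk 1509. With the GC and length trend removed, over 15062 genes, they were 163, 222, 110 and 1507, then 0, 21, 429 and 453, and 15. The calls among the 4 genes with annotated sequence were then 1 for CAC minus Con at 2 wk, 1 at 8 wk and 0 for Con at 8 wk minus 2 wk. That removal took the SD of Scand1 to 0.72 and the median correlation to 0.74, over 6 pairs in place of 10. The fit with coding GC content, over 13902 genes, was added after seeing the data. The genes called were then 111, 279, 109 and 1231, then 0, 33, 358 and 442, and 18. Of the same 4 genes it called 0, 0 and 1 for CAC minus Con at 2 and 8 wk and Con at 8 wk minus 2 wk. Under median-of-ratios scaling the genes called were 503, 213, 49 and 1409, then 0, 6, 265 and 349, and 984, with 1 of the 5 genes in CAC minus Con at 2 wk. With no filter, over 24227 genes, they were 298, 40, 29 and 1999, then 0, 0, 174 and 220, and 1313, with 1 gene for NCAC minus Con at 8 wk and 1 of the 5 genes for CAC minus Con at 2 wk. With only the compared groups fitted they were 0, 37, 27 and 2847, then 0, 0, 96 and 83, and 3166, and NCAC minus Con at 8 wk had 5. Of the 5 genes that fit called 0 for CAC minus Con at 2 wk, 4 at 8 wk and 1 for NCAC minus Con at 8 wk. With voom they were 294, 154, 47 and 1597, then 0, 2, 253 and 357, and 1144, with 0 of the 5 genes for CAC minus Con at 2 wk and 4 at 8 wk. A pseudocount of 1 gave 1 and 2 of the 5 genes for those comparisons, beside 549 and 2265 of all tested genes.

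Replicate numbers are shared between groups, but deviations of same-numbered libraries correlated from −0.28 to 0.35, so the numbers were not taken as a pairing. With the replicate block the genes called were 280, 154, 44 and 988, then 0, 10, 401 and 51, and 1418, with 1 of the 5 genes for CAC minus Con at 2 wk.

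Leaving out single libraries gave 2 to 1279, 0 to 590, 9 to 85 and 1034 to 3070 genes for CAC minus Con in time order, 0 to 2, 0 to 180, 43 to 367 and 72 to 714 for CAC minus NCAC, 0 to 3 and 0 to 1 for NCAC minus Con at 4 and 8 wk, and 173 to 2546 for Con at 8 wk minus 2 wk. Calls among the 5 genes ranged from 0 to 4 and 0 to 3 for CAC minus Con at 2 and 8 wk, and from 1 to 5 for Con at 8 wk minus 2 wk. Depth limits Scand1 most, at 0 to 71 reads per library.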
